A study of Mus musculus with 12 samples.

Results

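The SOX family was examined in RNAseq data of mouse adherent neural stem (ANS) cells, which grow as a monolayer and can be driven towards GABAergic neurons. The members were taken by gene symbol: Sox1, Sox2, Sox3, Sox4, Sox5, Sox6, Sox8, Sox9, Sox10 and Sox11. All 10 were among the 22609 genes of the deposited count tables, and 9 of them were named in the deposited FPKM table, which lists 34993 entries and does not name Sox1. ANS cells came from normal embryonic brain at E14.5, with no genetic change stated for any group. At T0 (3 libraries) they proliferated in growth medium with 20 ng/ml FGF2, 20 ng/ml EGF and 1% N2 supplement. At T1 (3 libraries) they had spent 2 days in medium D1, which holds 10 ng/ml FGF, 2 ng/ml EGF, 0.5% N2 and 1% B27. At T2 (4 libraries) they had spent 2 days in medium B, where 20 ng/ml BDNF takes the place of EGF beside 10 ng/ml FGF-2, 0.5% N2 and 1% B27. At T3 (2 libraries) the labels give 10 days in medium B. FGF is thus present at every time point, and EGF is absent from T2 on. The libraries of a time point are called biological replicates and, in the paper, independent replicas. Whether each was a culture of its own is not spelled out. The p-values thus measure the spread between libraries, which may be partly technical.

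SOX proteins bind and bend DNA through a shared HMG box, usually together with partner factors. In the developing brain the SOXB1 proteins (Sox1, Sox2, Sox3) keep cells in the progenitor state, and the SOXC proteins (Sox4, Sox11) promote the expression of neuronal genes as cells leave it. SOXD proteins (Sox5, Sox6) carry no activation domain of their own and work through partners, among them SOXE proteins. The SOXE group (Sox8, Sox9, Sox10) is known for stem cell and glial programmes, with Sox10 a defining factor of oligodendrocytes and of neural crest cells.

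To show how alike the members are as sequences, a stretch of 10 codons near the start of the HMG box, found by a search as the one most alike over the members, is printed from the reference genome NCBIM37 (mm9) in the coding direction. Capitals mark bases that differ from the commonest base at that position over the 9 members with an annotated coding sequence.
Sox2: aagAggcccatgaacgccttcatggtAtgg
Sox3: aagcgAcccatgaacgcGttcatggtgtgg
Sox4: aagcggcccatgaacgccttTatggtgtgg
Sox11: aaAcggcccatgaacgccttcatggtgtgg
Sox5: aagcgTccAatgaaTgccttcatggtgtgg
Sox6: aagcgAccAatgaaTgcGttcatggtTtgg
Sox8: aagcggcccatgaaTgccttcatggtgtgg
Sox9: aagcgAcccatgaacgccttcatggtgtgg
Sox10: aagAggcccatgaacgccttcatggtgtgg

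Of the 30 bases, 22 were shared by all 9 members, in a stretch chosen for its likeness. The Sox2 window lies at chr3:34549467-34549496 on the plus strand, and the Sox9 window at chr11:112644214-112644243, also on the plus strand. The others are on the minus strand, at chrX:58146144-58146173 (Sox3), chr13:29044684-29044713 (Sox4), chr12:28027097-28027126 (Sox11), chr6:143789767-143789796 (Sox5), chr7:122633250-122633279 (Sox6), chr17:25707141-25707170 (Sox8) and chr15:78993805-78993834 (Sox10). All are coding sequence. Sox2, Sox3, Sox4 and Sox11 consist of 1 exon in the transcripts used. The window lies in exon 13 of 15 in Sox5 and in exon 15 of 17 in Sox6. It lies in exon 1 of 3 in Sox8 and Sox9, and in exon 2 of 4 in Sox10. Over the 79 codons of the box, the 6 pairs within a SOX group were 91.1% to 98.7% identical in protein and 81.4% to 89.5% in bases. The 30 pairs between groups were 46.8% to 65.8% identical in protein. The longest run of identical bases was sought over the full transcripts, not the box alone. It was 48 between Sox4 and Sox11, 44 between Sox9 and Sox10 and 32 between Sox2 and Sox3. Reads can thus match a paralog for short stretches. Alignments that were not unique were left out of the gene counts and made up 26.0% to 39.0% of all entries per library. In the annotation, exons of Sox4 and Sox5 overlap genes on the other strand (Gm17419 and 4933415D12Rik). Neither is an entry of the count tables and the strand setting of the counting is not stated, so reads from these genes cannot be told apart from those of Sox4 and Sox5.

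The libraries held 8910724 to 16631614 counts on genes, with a median of 12601169. To follow 1 gene between libraries, levels are given as CPM, the count scaled to library size with TMM factors. To compare genes with each other they are given as FPKM, which is also per transcript length. The lengths behind the FPKM are not stated and differ from the annotation used here. At T0, Sox4 had 517 CPM and 269 FPKM, and Sox11 221 CPM and 23.2 FPKM. The annotation gives Sox4 4795 bases and Sox11 2013, the opposite order of length to that implied by the FPKM. The order of members, sums and shares in FPKM thus hold only for those lengths. A gene at 3 counts or fewer was treated as not detected, which corresponds to 0.183 to 0.323 CPM by library. The cells carried several markers of neural progenitors at T0, with Nes at 1211 ± 526 CPM, Vim at 3311 ± 408 and Fabp7 at 1273 ± 853 (SD, n = 3). Other genes of the progenitor list were near 0 at T0, with Nr2e1 at 0.212 CPM and Prom1 at 0.0715 CPM on average. Olig2 was at 1108 ± 215 CPM. Rbfox3, a marker of mature neurons, was at 0.0485 CPM at T0 and at 1.71 at T2, its highest mean, while Dcx, an early neuronal gene, went from 5.57 to 219 CPM between T0 and T1. Markers of microglia summed to at most 7.20 CPM and those of endothelium to at most 3.87 CPM in any library, and 7 of 8 microglia markers had at most 3 counts in each library.

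2 libraries stood apart from the others of their time point. T0 replicates 1 and 2 were close, whereas T0 replicate 3 differed, with a chi-square per gene of 96.4 against replicate 1 where replicates 1 and 2 gave 3.17. In T0 replicate 3, Sox2 was at 0.433 of the mean of the other two T0 libraries, Sox4 at 0.352, Sox6 at 0.366, Sox8 at 0.488 and Sox9 at 0.356, while Sox3 was at 2.99 of that mean. Sox5 (0.861) and Sox11 (1.16) were close to it. Of the 9814 genes with a mean of at least 10 CPM, 11.5% were off by 2-fold or more in this library, against 6 of the 8 SOX genes above that level. The T3 libraries differed in the same sense for several members, with replicate 4 at 0.694 of replicate 1 for Sox2, 0.617 for Sox4, 0.552 for Sox6 and 0.574 for Sox9, although 1.23 for Sox5 and 1.28 for Sox11. T0 replicate 3 also had the lowest share of reads on no gene (13.3%), the highest share of alignments that were not unique (39.0%) and the lowest TMM factor (0.932). Its deviations from the mean of its time point correlated with those of T3 replicate 4 at 0.517 over 11529 genes. Member values without T0 replicate 3 are given below.

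**Figure D1:**
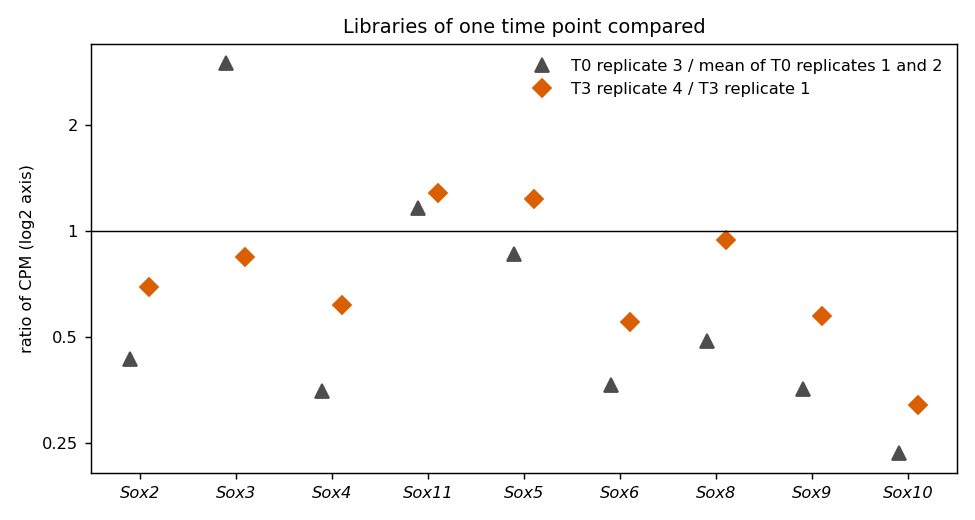
CPM of each SOX gene in T0 replicate 3 divided by the mean of T0 replicates 1 and 2 (triangles), and in T3 replicate 4 divided by T3 replicate 1 (diamonds), on a log2 axis with a line at a ratio of 1. Sox3 stands at 2.99 in T0 replicate 3, Sox5 and Sox11 lie near the line in both pairs, and the other members lie below it in both.

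In proliferating cells, Sox4 had the highest FPKM of the members, at 269 ± 119 (SD, n = 3), followed by Sox2 (107 ± 37.8) and Sox8 (103 ± 32.3). The ranges of Sox2 (63.2 to 130 FPKM) and Sox8 (65.9 to 127 FPKM) overlapped, while Sox4 lay above both. Sox9 (49.0 ± 19.7 FPKM), Sox3 (45.7 ± 35.1), Sox6 (25.3 ± 10.8), Sox5 (24.4 ± 7.09) and Sox11 (23.2 ± 3.92) followed, and among these 5 each overlapped the next in its range. Sox10 was near the bottom at 0.629 ± 0.357 FPKM. Sox1, the third SOXB1 gene, had 1 count each in T0 replicate 3 and T2 replicate 2 and 0 counts in all other libraries, so it was not detected at this depth.

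At T1 the order changed. Sox4 stood at 721 ± 15.2 FPKM, Sox3 at 142 ± 15.2, Sox2 at 132 ± 5.35, Sox8 at 115 ± 1.61, Sox9 at 108 ± 6.83 and Sox6 at 46.0 ± 9.92 (SD, n = 3). Sox11 (15.1 ± 2.99 FPKM) and Sox5 (14.6 ± 4.77) came last among the expressed members, and their ranges overlapped. Sox3 and Sox2 also overlapped, at 130 to 159 and 127 to 138 FPKM, whereas Sox2 lay above Sox8 and Sox8 above Sox9 in every pair of T1 libraries. At T2 the order was Sox4 (551 ± 62.0 FPKM), Sox3 (115 ± 8.77), Sox2 (112 ± 15.6), Sox8 (98.9 ± 12.2), Sox9 (81.5 ± 5.64) and Sox6 (36.3 ± 3.63), with Sox11 and Sox5 again lowest. Sox3, Sox2, Sox8 and Sox9 each overlapped the next there. At T3 it was Sox4 (377 ± 198 FPKM), Sox8 (114 ± 20.3), Sox2 (89.0 ± 29.6), Sox9 (78.8 ± 53.5) and Sox3 (59.3 ± 12.8). With 2 libraries behind each value, Sox8, Sox2, Sox9 and Sox3 each overlapped the next, while Sox8 lay above Sox3.

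Summed over the 9 members, the FPKM was 438 to 772 at T0, 1273 to 1303 at T1, 969 to 1070 at T2 and 538 to 1021 at T3. The T1 and T2 libraries thus lay above every T0 library, and the T3 libraries overlapped the T0 range. Sox4 alone made up 30.2% to 45.2% of this sum at T0 and 55.3% to 56.1% at T1. From T0 to T3, the mean share of the SOXD pair was 7.74%, 4.70%, 4.49% and 6.32%, and that of the SOXE group 23.2%, 17.2%, 17.8% and 25.1%. In FPKM the mean sum of the SOXD pair (Sox5 and Sox6) was 49.7, 60.7, 45.7 and 50.1, and the mean SOXE sum 152, 222, 181 and 193. The lower shares at T1 and T2 were thus taken of a larger total. The sum of Sox2 and Sox3 varied little between T0 libraries (149.5 to 155.6 FPKM), although Sox2 was lower and Sox3 higher in T0 replicate 3.

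**Figure D2:**
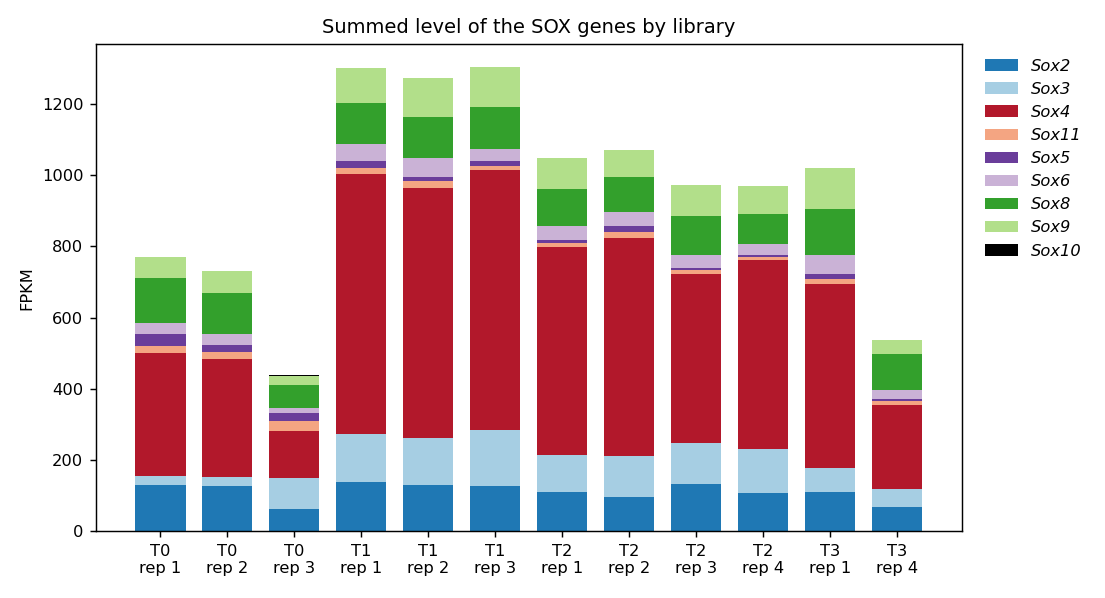
Stacked FPKM of the 9 SOX genes named in the FPKM table, for each of the 12 libraries. Sox4 is the largest layer in all libraries, the T1 libraries reach 1273 to 1303 FPKM, and T0 replicate 3 (438) and T3 replicate 4 (538) are the lowest bars.

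Each time point was next compared with T0, to ask which members changed as the cells left proliferation. A test over all genes (edgeR, adjusted p under 0.05) called 31.9% of 12364 genes at T1 and 43.3% of 12607 genes at T2. At T3, with its 2 libraries, 4.72% of 12721 genes were called. Of the 8 members that passed the filter on low counts at T1, Sox3, Sox4 and Sox9 rose, Sox5 fell, and the other 4 did not pass the test. At T2 the same 3 rose and 2 fell, Sox5 and Sox11. DESeq2, which also tested Sox10, called 6 members at T1 and 6 at T2. At T3, 0 of 9 were called by edgeR, with 2 at an unadjusted p under 0.05 and 2 called by DESeq2 (Sox5 and Sox10, both lower). By direction, 15.1% of all genes tested were called higher and 16.8% lower at T1, against 3 and 1 of 8 members. At T2 these shares were 21.4% and 21.8%, against 3 and 2 of 8. For T1, T2 and T3, the members tested had a median log2 fold change of 0.61, 0.43 and 0.44, beside -0.0082, 0.0023 and -0.0149 over all genes tested. The 3 comparisons share the T0 libraries and are not independent of each other. In these bulk samples, fewer cells of a type and less RNA per cell cannot be told apart.

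**Figure D3:**
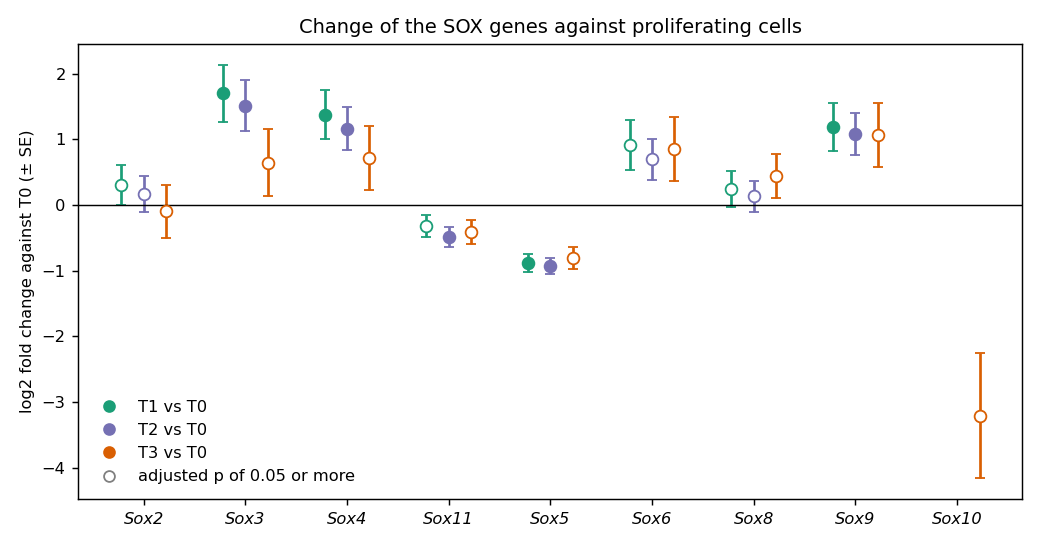
Log2 fold change against T0 with its standard error for each SOX gene that passed the filter on low counts, at T1, T2 and T3. Filled points passed the test over all genes: Sox3, Sox4 and Sox9 above 0 and Sox5 below 0 at T1 and T2, and Sox11 below 0 at T2.

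Within SOXB1, Sox3 rose at T1 and T2 and Sox2 was not called. Sox3 was at 70.5, 70.1 and 210.0 CPM in the T0 libraries. It was at 366, 355 and 421 CPM at T1, at 282, 333, 334 and 371 at T2, and at 196 and 165 at T3. Every T1 and T2 library was above every T0 library, and the T3 libraries fell between the T0 values. Sox3 rose by 1.70 ± 0.44 on the log2 scale at T1 (SE, 3.24-fold, adjusted p = 0.026) and by 1.51 ± 0.39 at T2 (2.85-fold, adjusted p = 0.014). At T3 the difference was 0.64 ± 0.51 (adjusted p = 0.47). Leaving out T0 replicate 3, the library with the high Sox3 value, brought the log2 difference to 2.44 at T1, 2.25 at T2 and 1.38 (adjusted p = 0.0093) at T3.

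Sox2, the SOXB1 gene most used as a marker of neural stem cells, was at 430, 431 and 186 CPM at T0. It was at 448, 437 and 407 CPM at T1, at 372, 332, 455 and 393 at T2, and at 382 and 265 at T3. Each later group overlapped T0. The log2 difference from T0 was 0.30 ± 0.30, 0.17 ± 0.27 and -0.10 ± 0.40 at T1, T2 and T3 (SE, adjusted p = 0.47, 0.64 and 0.90). It hung on T0 replicate 3, without which it was -0.00078 at T1 and -0.13 at T2. With the libraries numbered 1 and 2 only, Sox2 was lower at T2 by 0.28 on the log2 scale (adjusted p = 0.027). The ratio of Sox3 to Sox2 counts was 0.164 and 0.163 in T0 replicates 1 and 2, 1.13 in T0 replicate 3, 0.811 to 1.04 at T1, 0.733 to 1.00 at T2 and 0.514 to 0.623 at T3.

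Sox2 lies within the locus of Sox2ot, a long non-coding RNA on the same strand whose exons do not overlap those of Sox2 in the annotation. The FPKM table gives both the same locus, and how reads were divided between them there is not stated. Sox2ot had 9.68, 7.95 and 1.69 CPM at T0, 56.5, 56.7 and 26.5 at T1, 28.5, 19.4, 39.1 and 22.7 at T2, and 15.2 and 6.46 at T3. Its T1 and T2 libraries all lay above T0. It rose by 2.85 ± 0.60 on the log2 scale at T1 (SE, adjusted p = 0.013) and by 2.11 ± 0.51 at T2 (adjusted p = 0.011), and differed by 0.77 ± 0.74 at T3 (adjusted p = 0.55). Its counts were 0.00909 to 0.0225 of those of Sox2 at T0 and 0.0653 to 0.130 at T1.

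Of the 2 SOXC genes among the members, Sox4 rose at T1 and T2 and Sox11 fell at T2. Sox4 was at 659, 661 and 232 CPM at T0, at 1371, 1371 and 1285 at T1, at 1127, 1276, 1056 and 1111 at T2, and at 1038 and 640 at T3. The T1 and T2 libraries were all above T0, while T3 replicate 4 was within the T0 range. Sox4 rose by 1.37 ± 0.37 on the log2 scale at T1 (SE, 2.59-fold, adjusted p = 0.031) and by 1.16 ± 0.33 at T2 (2.24-fold, adjusted p = 0.021). At T3 the difference was 0.71 ± 0.48 (adjusted p = 0.40). Without T0 replicate 3 these values were 1.02, 0.81 and 0.36, the first 2 of them called, and without T3 replicate 4 the last was 1.008 (adjusted p = 0.41).

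Sox11, its closest paralog, was at 199, 220 and 243 CPM at T0, at 171, 214 and 147 at T1, at 141, 199, 148 and 138 at T2, and at 144 and 184 at T3. On this scale T2 replicate 2 reached the lowest T0 library, so the groups touched. Sox11 fell by 0.48 ± 0.15 on the log2 scale at T2 (SE, adjusted p = 0.032). The log2 difference was -0.32 ± 0.16 at T1 (adjusted p = 0.17) and -0.41 ± 0.18 at T3 (adjusted p = 0.22). On the FPKM scale, every T1 library (12.3 to 18.3) and T2 library (9.26 to 16.7) lay below the T0 libraries (20.6 to 27.7). The ratio of Sox4 to Sox11 counts was 0.957 in T0 replicate 3 and 2.99 to 3.31 in the other T0 libraries, 6.42 to 8.72 at T1 and 6.40 to 8.07 at T2. In the T3 libraries it was 7.23 and 3.47.

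**Figure D4:**
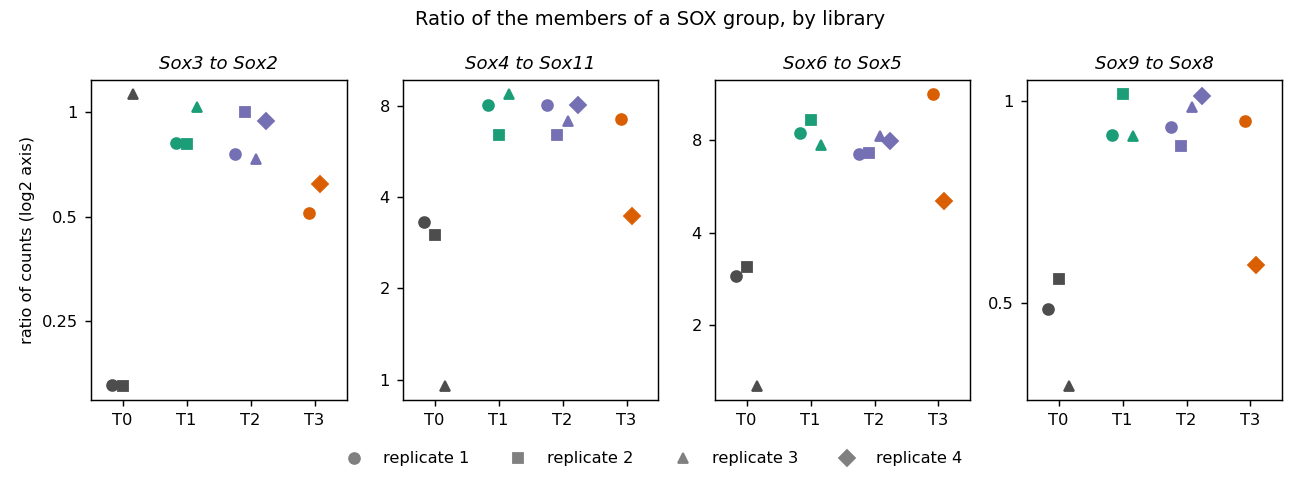
Ratio of counts between the members of each SOX group in every library, on log2 axes, for Sox3 to Sox2, Sox4 to Sox11, Sox6 to Sox5 and Sox9 to Sox8. All T1 and T2 libraries lie above all T0 libraries for the last 3 ratios, and T0 replicate 3 is the highest T0 library for Sox3 to Sox2 and the lowest for the others.

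Sox5 fell at both early time points. Its CPM was 119, 117 and 102 at T0, 64.3, 67.8 and 51.9 at T1, 62.6, 66.3, 54.1 and 51.3 at T2, and 57.1 and 70.2 at T3. All 9 libraries of differentiating cells lay below the 3 of proliferating cells. The fall was 0.88 ± 0.14 on the log2 scale at T1 (SE, 1.84-fold, adjusted p = 0.0047) and 0.93 ± 0.12 at T2 (1.90-fold, adjusted p = 7e-04). At T3 the log2 difference was -0.81 ± 0.17 (adjusted p = 0.058). Without T0 replicate 3 it was -0.88 at T3 (adjusted p = 0.020). On the FPKM scale the T1 range (11.1 to 20.0) overlapped that of T0 (18.0 to 32.0).

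Sox6, the other SOXD gene among the members, was not called by edgeR on all libraries of the time points compared, with no replicate block. It had 345, 363 and 130 CPM at T0, 545, 632 and 401 at T1, 451, 481, 446 and 407 at T2, and 645 and 356 at T3. All T1 and T2 libraries were above the T0 libraries, and T3 replicate 4 was within them. The log2 difference was 0.91 ± 0.38, 0.69 ± 0.31 and 0.86 ± 0.49 at T1, T2 and T3 (SE, adjusted p = 0.11, 0.10 and 0.32). With T0 replicate 3 left out the difference was smaller and passed the test, at 0.57 at T1 (adjusted p = 0.020) and 0.35 at T2 (adjusted p = 0.010). Without T3 replicate 4 it was 1.21 at T3 (adjusted p = 0.33). At T1 Sox6 was also called with the replicate block (adjusted p = 0.034), in the fit of all 12 libraries (0.042) and, at the edge of the threshold, by DESeq2. The ratio of Sox6 to Sox5 counts was 1.27 to 3.09 at T0, 7.72 to 9.33 at T1 and 7.20 to 8.25 at T2. In the T3 libraries it was 11.3 and 5.08.

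Among SOXE genes, Sox9 rose and Sox8 was not called. Sox9, which acts in neural stem cells and astrocytes, had 217, 225 and 78.8 CPM at T0. It had 365, 437 and 386 CPM at T1, 365, 326, 415 and 346 at T2, and 460 and 264 at T3, so that every library of differentiating cells was above every T0 library. The rise was 1.18 ± 0.37 on the log2 scale at T1 (SE, 2.27-fold, adjusted p = 0.047) and 1.08 ± 0.32 at T2 (2.11-fold, adjusted p = 0.027). At T3 the difference was 1.07 ± 0.49 (adjusted p = 0.23). Without T0 replicate 3 these values were 0.84, 0.73 and 0.73, the first 2 of them called, and without T3 replicate 4 the last was 1.41 (adjusted p = 0.29).

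Sox8 was at 444, 416 and 210 CPM at T0, at 409, 427 and 434 at T1, at 399, 381, 422 and 340 at T2, and at 492 and 464 at T3. The T1 and T2 libraries overlapped T0, and the T3 libraries were above it. The log2 difference was 0.24 ± 0.27, 0.13 ± 0.24 and 0.44 ± 0.34 at T1, T2 and T3 (SE, adjusted p = 0.51, 0.69 and 0.45). Sox9 counts were 0.376 to 0.542 of those of Sox8 at T0, 0.888 to 1.03 at T1 and 0.857 to 1.02 at T2, and the T3 values were 0.933 and 0.568. Whether the ratios of paralogs changed was not tested, and they are given as a description.

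Sox10 was near the limit of detection. It had 45, 38 and 10 counts in the T0 libraries, 2, 8 and 6 at T1, 7, 2, 7 and 6 at T2, and 4 and 1 at T3. All 9 libraries of differentiating cells had fewer counts than any T0 library. The filter removed Sox10 at T1 and T2. At T3 it passed through the T0 libraries alone, so a lower value there was built in, and it adds no support. With no such filter its log2 difference was -2.52 at T1 (adjusted p = 0.029) and -2.27 at T2 (adjusted p = 0.012). At T3 it was -3.21 ± 0.95 (SE, adjusted p = 0.10). Foxd3, an early gene of the neural crest, a lineage where Sox10 is high, had at most 1 count per library.

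**Figure D5:**
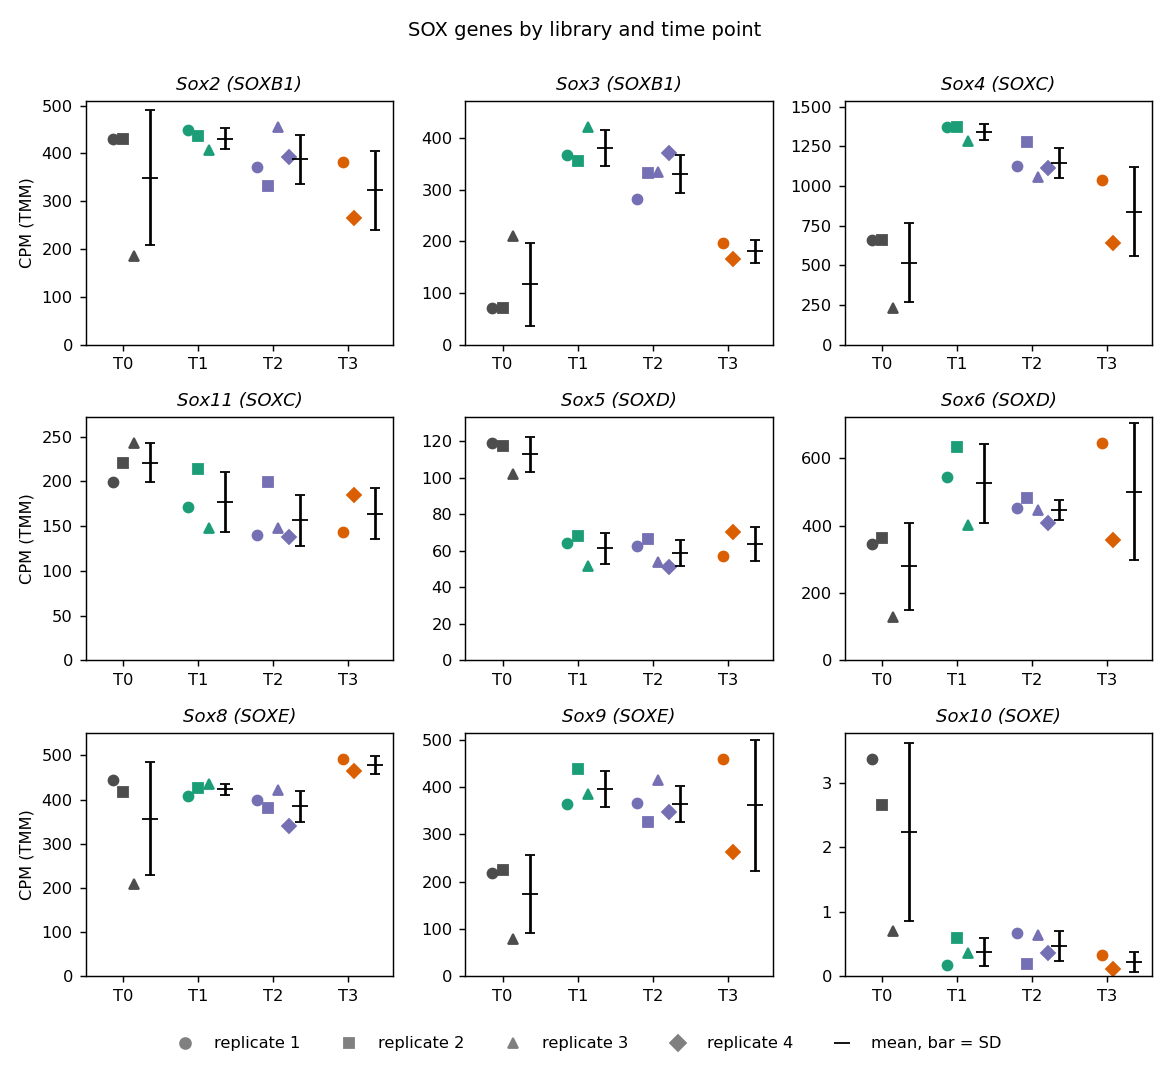
CPM of each detected SOX gene in all 12 libraries, with the mean and SD of each time point beside the points. Sox3, Sox4, Sox6 and Sox9 lie higher in all T1 and T2 libraries than in T0, Sox5 and Sox10 lie lower, and replicate 3 (triangle) stands apart from the other two T0 libraries in all panels but those of Sox5 and Sox11.

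The libraries of a time point did not overlap those of T0 for 5 of the 8 members tested at T1, beside 56.5% of all genes tested, for 5 of 8 at T2, beside 54.2%, and for 5 of 9 at T3, beside 50.2%. At T1 and T2 these were Sox3, Sox4, Sox5, Sox6 and Sox9, and Sox10, which was not tested, was separate as well. At T3 they were Sox5, Sox8, Sox9, Sox10 and Sox11. Sox10 is counted among these 5 but passed the filter at T3 through the T0 libraries alone. A lower value there was thus built in, and its separation adds no support.

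The calls differed in how far they rested on single libraries. Sox5 was called under all 12 alternatives tried at T1 and all 13 at T2. Sox4 was not called at T1 when any T1 library was left out (adjusted p from 0.083 to 0.098), nor at T2 without T2 replicate 2 (adjusted p = 0.055). Sox3 was called at T2 under all 13 alternatives and at T1 under 7 of 12. Sox9 was called under 7 of 12 at T1 and 8 of 13 at T2, and Sox11 at T2 under 7 of 13. At T1, leaving out T0 replicate 1, T0 replicate 2 or any T1 library ended the call of Sox3 (adjusted p from 0.056 to 0.087) and of Sox9 (adjusted p from 0.050 to 0.14). At T2, Sox9 was lost without any of the 4 T2 libraries (adjusted p from 0.051 to 0.067) and with the replicate block (0.084). Sox11 was lost without T0 replicate 2 (0.066) or T2 replicate 1, 3 or 4 (from 0.082 to 0.085), with the block (0.10) and with the libraries numbered 1 and 2 only (0.090). The direction of each called member was the same in all of its alternatives.

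From T1 to T2, when EGF is withdrawn, BDNF added and the cells replated on laminin, 0.63% of 12382 genes were called. Of the 8 members tested, 0 were called by edgeR and 0 by DESeq2, with 1 at an unadjusted p under 0.05. This test paired no libraries, since the labels do not state that a shared replicate number marks a shared culture. Deviations of same-numbered libraries nonetheless correlated at 0.32, 0.468 and 0.233. By correlation of deviations, T1 replicate 3 was closer to T2 replicate 4 (0.476) than to T2 replicate 3 (0.233). With the number as a block, 246 genes were called in place of 78, again with 0 members. Sox4 was the 1 member whose groups of libraries did not overlap, at a log2 difference of -0.22 ± 0.09 (SE, adjusted p = 0.38), beside 12.3% of all genes tested. The median log2 fold change of the members was -0.16.

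From T2 to T3, 1.19% of 12599 genes were called, with 0.691% called lower, and 1 of 8 members. Sox3 fell by 0.87 ± 0.14 on the log2 scale (SE, 1.83-fold, adjusted p = 0.039), with both T3 libraries below all 4 of T2. This call was lost when any T2 library or T3 replicate 4 was left out (adjusted p from 0.069 to 0.13; without T3 replicate 4 the lone T3 library is assumed to vary like those of T2), as well as under the block (0.16) and in a fit of all 12 libraries (0.36). Sox4 differed by -0.45 ± 0.19 (adjusted p = 0.26) and Sox8 by 0.31 ± 0.12 (adjusted p = 0.23), each with separate groups, as were 25.7% of all genes tested.

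Of the 10 other SOX genes listed, Sox12, Sox13 and Sox21 were expressed and the other 7 were not detected at any time point. Sox21, a SOXB2 gene that opposes SOXB1 proteins, had 111 ± 29.4 CPM at T0 and 252 ± 20.9 at T1 (SD, n = 3). It rose by 1.17 ± 0.21 on the log2 scale at T1 (SE, adjusted p = 0.0073) and by 1.07 ± 0.18 at T2 (adjusted p = 0.0022), and differed by 0.48 ± 0.30 at T3 (adjusted p = 0.36). Sox13, a SOXD gene, was at 35.6 ± 3.86 CPM at T0 and fell at every time point, by 0.74 ± 0.14 at T1 (adjusted p = 0.0093), 0.94 ± 0.13 at T2 (adjusted p = 7e-04) and 1.40 ± 0.19 at T3 (adjusted p = 0.024). Sox12, the third SOXC gene, differed by -0.16, -0.09 and 0.03 (adjusted p = 0.37, 0.52 and 0.93).

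The genes of the programmes that SOX factors act in were counted on lists. Of 18 early neuronal genes, 12 were tested at T1, of which 7 rose and 3 fell, and 13 at T2, of which 9 rose and 2 fell. Neurog2, a proneural factor, rose by 5.74 and 6.15 on the log2 scale at T1 and T2, Dcx by 5.29 and 6.06 and Snap25 by 3.08 and 3.55, from at most 6 counts per library of Neurog2 and 4 of Snap25 at T0. Elavl4 fell by 1.40 at T1. Stmn1 (log2 difference -1.15 and -1.03) and Tead2 (-1.06 and -1.24) fell at T1 and T2. At T3, 2 of 14 were called, Dcx and Rbfox3, both higher. Genes such as Neurog2, Snap25 and Rbfox3 were near 0 at T0 (at most 6, 4 and 1 counts). They passed the filter through later libraries and had to be higher there. Of 18 interneuron genes 8 were tested, of which 4 rose at T1 and T2 and 3 at T3. Lhx8 fell by 1.72 at T1. Gad2, Slc32a1, Dlx5, Dlx6, Sst and Npy, which also define GABAergic neurons or their precursors, had at most 1 count in any library, and Dlx1 was not called (-0.06, -0.24 and -0.78 on the log2 scale at T1, T2 and T3). The log2 difference was 3.75, 4.25 and 3.77 at T1, T2 and T3 for Gad1, whose product makes GABA.

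Among 18 tested progenitor genes, where Sox2 and Sox3 act, 2 rose and 3 fell at T1, and 2 rose and 6 fell at T2. The Notch target Hes5 fell by 1.75 and 1.81 and Hmga2 by 1.52 and 1.80, whereas Egfr, the EGF receptor, rose by 0.88 and 0.66 on the log2 scale. All 12 cell cycle genes fell at T1 and T2, with a median log2 difference of -3.62 and -3.10. At T3, the list summed to 723 to 1360 CPM, against 200 to 372 at T1 and 2300 to 3920 at T0, and 1 of 12 was called.

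SOXE genes act in glia, and glial genes were counted likewise. Of 20 oligodendrocyte lineage genes, 1 of 12 tested rose at T1 and 6 of 14 at T2 (Gpr17, Mog, Olig1, Opalin, Pdgfra and Ugt8a). Opalin had 0 counts in every T0 library and Mog at most 8, so that they passed the filter through T2 and had to be higher there. The summed level was 3900 to 4080 CPM at T0, 5100 to 5690 at T1, 5030 to 5990 at T2 and 6840 to 7080 at T3. Most of it came from Olig1 (2255 CPM on average at T0 and 3802 at T3) and Olig2 (1108 and 1516). Pdgfra, the receptor of oligodendrocyte precursors, rose by 2.83 and 3.02 on the log2 scale, while Mbp, a myelin gene, was at most at 0.648 CPM on average at any time point. Among 14 tested astrocyte genes, Glul fell at T1, and Aldh1l1, Gja1, Glul and Nfib fell at T2. Gfap, the classic astrocyte marker, varied widely between T0 libraries, from 7 to 2144 counts. The Schwann and neural crest list summed to 31.2 to 89.1 CPM, most of it from Pmp22 (18.2 to 50.3 CPM on average by time point). Ngfr was called higher at T2, by 2.36 on the log2 scale, from at most 4 counts per library at T0. Like Opalin and Mog, it passed the filter through T2 and had to be higher there. The median log2 difference at T1 and T2 was 1.122 and 0.994 for the early neuronal genes tested, 0.88 and 1.19 for interneuron genes, 0.004 and -0.12 for progenitor genes, 0.26 and 0.56 for oligodendrocyte lineage genes and -0.21 and -0.28 for astrocyte genes, beside -0.0082 and 0.0023 for all genes tested. The part of a change in cell makeup in the SOX values was not tested.

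By Pearson correlation of log2 CPM over the 12 libraries, among 11529 genes, the genes most like each member were found. They were Pag1 (0.978), Ttyh1 (0.970) and Syt11 (0.965) for Sox2, and Pard6g (0.962), Arntl (0.961) and Klc2 (0.960) for Sox3. Those most like Sox4 were Atg13 (0.992), Avl9 (0.990) and Arhgef18 (0.989), and those most like Sox9 were Tcp11l2 (0.989), Klhl7 (0.988) and Trim9 (0.988). Lphn3 (0.980) led for Sox6, D430020J02Rik (0.979) for Sox5, Enc1 (0.925) for Sox8 and Mtf1 (0.908) for Sox11. These are descriptions over libraries that share their time points and depth, and the 3 highest of so many genes are high by selection.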

How the data were processed

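Libraries were prepared by the authors with the TruSeq RNA v2 kit from Trizol RNA, sequenced on an Illumina HiScanSQ and aligned to mm9. The submitters' processing notes name CASAVA 1.8, TopHat2 2.0.6, Bowtie 0.12.7.0, HTSeq 0.6.0 and DESeq2 1.0.0. The authors deposited raw counts per gene for each of the 12 libraries, with 5 entries that name no gene and were left out. Reads on no gene made up 13.3% to 24.1% of uniquely aligned reads. The authors also deposited FPKM per gene and library. The tool behind the FPKM and the strand setting are not given in the sources used here.

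Time points were taken from the labels. For T2 the paper's text gives 3 replicas and the labels 4, and all 4 were used. For T3 the labels give 10 days in medium B and the text 10 days after T2. Genes were filtered with filterByExpr, scaled by TMM (factors 0.932 to 1.04) and tested by the quasi-likelihood test of edgeR 4.0.16 in R 4.3.3, on the libraries of the 2 time points compared. Benjamini-Hochberg adjustment ran over all genes tested, with a threshold of 0.05. SE is the size of the log2 fold change divided by the square root of F. The fits were tested on simulated data.

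The alternatives were DESeq2 1.42.0, size factors of DESeq2 (RLE) in edgeR, no filter, 1 fit of all libraries, the replicate number as a block, leaving out each library, and the libraries numbered 1 and 2 only. The main tests used no block in any comparison. Deviations of same-numbered libraries correlated at 0.32, 0.468 and 0.233 between T1 and T2, and at 0.163 or less between T0 and T1 or T2.

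No 2 libraries agreed within sampling noise (chi-square per gene of 3.17 or more). Sequences and positions are from NCBIM37 with GENCODE vM1, which does not name Sox1. The members and lists were chosen with earlier results of these data known. Named genes are the members, other SOX genes, 2 to 4 genes per list (the largest called changes, or defining genes), genes most like a member, and genes whose exons overlap a member. Sox2ot, Pmp22, Foxd3, Gfap, Mbp, Rbfox3, Nr2e1 and Prom1 were named as neighbours or markers, and Stmn1 and Tead2 as genes of their list that fell. The detection limit covers counting error only. Some results are not reported here.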

Additional observations from a re-analysis of the deposited data

Results flagged for a closer look

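Sox11 in T2 replicate 2, at 199 CPM, lay far from the other 3 T2 libraries (138 to 148 CPM), a gap of the size that chance gives in about 1 in 20 groups. Such a gap was sought at T2 in each of the 10 members, with no adjustment for their number. Sox1, with 1 count in T2 replicate 2, passed the same limit. The difference of Sox3 from T0 was larger at T2 than at T3, and the log2 difference between T3 and T2 was -0.87 in the test of these libraries.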

How the results depend on the processing

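At T1, T2 and T3, 4, 5 and 0 members were called against T0, with 0 between T1 and T2 and 1 between T2 and T3. With the replicate block 3 were called at T2 and 0 between T2 and T3. At T3, 1 was called with no filter, 2 by DESeq2 and 3 in the fit of all 12 libraries, which called 0 between T2 and T3. Leaving out 1 library gave 1 to 6 at T1, 3 to 7 at T2, 0 to 3 at T3, 0 between T1 and T2 and 0 to 2 between T2 and T3. Of 124 values of called members, all kept their direction and 92 their call. Members that were not called in the comparison reversed 18 of 347 times. With the libraries numbered 1 and 2 only, Sox2 was at -0.277 at T2, and Sox8 at -0.041 at T1 and -0.130 at T2. Leaving out 1 library gave, against T0, -0.00078 to 0.476 for Sox2 and -0.025 to 0.429 for Sox8 at T1, -0.133 to 0.346 and -0.142 to 0.314 at T2, and -0.395 to 0.132 for Sox2 at T3. Between T1 and T2 it gave -0.164 to 0.023 for Sox5, which the block put at 0.0079. Between T2 and T3 it gave -0.049 to 0.267 for Sox5, -0.320 to 0.517 for Sox6, -0.458 to 0.325 for Sox9 and -0.137 to 0.242 for Sox11. The cause was not tested.

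Over all genes, the block called 3372 at T1 (3949 without it), 3157 at T2 (5455), 246 between T1 and T2 (78) and 14 between T2 and T3 (150), and no block could be fitted for T3 against T0, which share 1 number. Outside the block, the numbers were not used to pair libraries. Apart from T1 against T2, same-numbered libraries correlated at -0.004 to 0.163 for T1 and -0.168 to 0.023 for T2 against T0. The values were -0.074 and 0.293 for T3 against T2, and 0.493 for the 1 number that T3 and T0 share. Genes called at T3 numbered 600, with 1165 under no filter, 2031 by DESeq2, 3865 in the fit of all libraries, 15 without T0 replicate 1 or 2, 2317 without T0 replicate 3, 0 without T3 replicate 1 (1604 at an unadjusted p under 0.05) and 1 without T3 replicate 4, where the lone T3 library is assumed to vary like those of T0. Between T1 and T2 they numbered 161, 301 and 3 in the first 3 of these and 9 to 68 with a library left out, and between T2 and T3 719, 760 and 42, and 1 to 1347. At T1 a left-out library gave 1750 to 6290, and the libraries numbered 1 and 2 gave 7462. The 2 libraries of T3 limit its comparisons.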
